A study of Mus musculus with 9 samples.

Results

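The genes described here are those of the cytoplasmic ribosomal proteins, measured by RNA-seq in cells of the mouse embryonic cortex that had received a hairpin against a glypican. They were chosen by name: protein-coding genes whose symbol starts with Rpl or Rps and a digit, together with Rplp0, Rplp1, Rplp2 and Rpsa. Of 101 protein-coding symbols that fit these names, 6 with a pseudogene suffix, 9 Rps6k kinases and Rps19bp1 were left out, which gave 85 genes. A further 3, Rpl10l, Rpl39l and Rpl3l, did not reach 1 CPM (read counts scaled to a common library size) in 3 libraries, and 82 genes remained out of 78275 gene IDs in the count table. The lowest gene inside that limit was Rps27rt, at 1.26 to 3.16 CPM across the libraries without further scaling, and the highest outside it was Rpl39l, at 0.0616 to 0.250 CPM. The 82 genes comprise 49 of the large subunit and 33 of the small subunit, and all 82 passed the filter on low counts that left 27773 genes for testing.

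Wild-type embryos were electroporated in utero at E14.5 with a construct carrying mCherry and a microRNA-embedded hairpin, and mCherry-positive cells were sorted 48 h later, at E16.5. Groups of 3 libraries received a hairpin to knock down Gpc4 (sh-Gpc4), one to knock down Gpc2 (sh-Gpc2), or a scramble control (sh-NT), so the controls carried the construct and mCherry too. Both targets are glypicans, heparan sulfate proteoglycans of the cell surface. The labels call the sorted cells progenitors and neurons of the cortex and the tissue forebrain. Electroporation marks only the cells that took up the construct, so the sort aims at a mixture of transfected cell types. Whether untransfected cells were sorted with them was not tested. Libraries are named by the numbers in the column headers, which are 1, 3 and 4 for sh-Gpc4 and 1, 2 and 4 for sh-Gpc2 and sh-NT. Whether replicate libraries stem from different animals or litters is not stated in the labels, so a p-value reflects only how far these samples spread, which may be technical.

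The cytoplasmic ribosome joins a small subunit, which holds the mRNA and reads its codons, to a large subunit, which forms the peptide bond and lets the new protein leave through a tunnel. Each subunit is built from ribosomal RNA and ribosomal proteins, most of which are needed in equal numbers and are made in proportion to each other. Many of their mRNAs begin with a C and a run of pyrimidines, the 5' terminal oligopyrimidine (TOP) tract, through which mTORC1 and the RNA-binding protein Larp1 control their translation. Dividing cortical progenitors make many ribosomes, and ribosome production declines as the forebrain develops.

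The sequences around transcription starts are shown because the TOP tract is a shared feature that the choice of genes by name did not use. RefSeq promoter entries (GRCm38.p6) matched 62 of the 82 genes. The letters CTTTC were searched in the 60 bases from 40 before the annotated start to 20 from the start on. On the gene's strand they were present in 19 of the 62 windows (30.6%), against 7.97% of 27025 genes with such an entry. On the opposite strand the shares were 8.06% of the ribosomal protein genes and 6.99% of all entries. The longer CTTTCC, which contains CTTTC, was present on the gene's strand in 17.7% of the ribosomal protein genes and 2.85% of all entries. TATAAA was present on the gene's strand in 3.23% and 2.91%. A match describes these letters in this window only, and annotated starts can lie some bases off the start used.

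The windows below are printed 5' to 3' on the gene's strand, with CTTTC in capitals. Rpl38, Rplp2, Rps10 and Rpl35 are shown as genes with the motif near the start. They lie at chr11:114668540-114668599 on the plus strand, chr7:141447611-141447670 on the plus strand, chr17:27635225-27635284 on the minus strand and chr2:39005112-39005171 on the minus strand. Rps27 (chr3:90213629-90213688, minus strand) and Rps27rt (chr9:114982720-114982779, minus strand) are shown as a parent gene and its retrogene, whose windows share a run of 19 bases that begins with the motif. Rps28 (chr17:33824543-33824602, minus strand), Rpl39 (chrX:37085203-37085262, minus strand) and Rps2 (chr17:24720023-24720082, plus strand) are shown because the comparison of both hairpins turned on them, and their windows hold no CTTTC.
Rpl38: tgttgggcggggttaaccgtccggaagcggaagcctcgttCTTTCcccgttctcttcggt
Rplp2: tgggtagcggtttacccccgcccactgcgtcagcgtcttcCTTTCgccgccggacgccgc
Rps10: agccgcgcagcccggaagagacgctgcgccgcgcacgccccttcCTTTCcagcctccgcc
Rpl35: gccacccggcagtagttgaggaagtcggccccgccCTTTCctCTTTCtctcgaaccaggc
Rps27: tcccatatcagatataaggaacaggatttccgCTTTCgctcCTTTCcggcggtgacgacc
Rps27rt: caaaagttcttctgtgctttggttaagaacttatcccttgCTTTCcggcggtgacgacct
Rps28: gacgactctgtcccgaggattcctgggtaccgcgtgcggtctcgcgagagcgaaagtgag
Rpl39: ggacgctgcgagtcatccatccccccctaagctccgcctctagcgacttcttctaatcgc
Rps2: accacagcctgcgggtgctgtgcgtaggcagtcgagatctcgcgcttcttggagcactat

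Libraries held 48045603 to 66538437 counted reads. Gpc4 was at 137, 99.9 and 129 CPM in sh-Gpc4, 145, 216 and 116 CPM in sh-Gpc2, and 165, 188 and 175 CPM in sh-NT. Gpc2 was at 168, 70.3 and 96.6 CPM in sh-Gpc4, 167, 145 and 79.6 CPM in sh-Gpc2, and 199.7, 207 and 161 CPM in sh-NT. The log2 fold change of Gpc4 over sh-NT was -0.53 in sh-Gpc4 and -0.15 in sh-Gpc2, and that of Gpc2 was -0.76 in sh-Gpc4 and -0.54 in sh-Gpc2, so the level of Gpc2 was no lower with its own hairpin than with the other. These and all later CPM values were scaled by TMM (trimmed mean of M-values). None of these differences passed the test (adjusted p of 0.488 in sh-Gpc4 and 0.968 in sh-Gpc2, edgeR's quasi-likelihood test with Benjamini-Hochberg adjustment). The first principal component of tested genes with a mean log2 CPM above 3 held 71.6% of the variance. On it, sh-Gpc4 library 3 (46.7) and sh-Gpc2 library 4 (36.6) lay apart from the other 7 libraries (-25.8 to 15.8), so results are also given without these libraries. The cut is not sharp, since sh-Gpc4 library 4 (15.8) lay about as far from the next library, sh-Gpc4 library 1 (-5.7), as from sh-Gpc2 library 4. All markers in the lists for radial glia (10), intermediate progenitors (8) and excitatory neurons (10) were detected, as were all 11 of microglia and macrophages. None of these markers was at 0 in all 9 libraries. The summed level of the microglia markers was 1019 to 1573 CPM in sh-Gpc4, 489 to 1420 CPM in sh-Gpc2 and 818 to 1244 CPM in sh-NT. Whether the cells behind these microglia reads had taken up the construct was not tested.

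In sh-NT cells the ribosomal protein genes were abundant and spread over a wide range of levels. The median gene was at 153.5 CPM, and 81 of the 82 lay between 30 and 1000 CPM. Rpl4, whose protein reaches into the exit tunnel of the large subunit, was the highest at 818 ± 20.2 CPM (mean ± SD, n = 3), and the retrogene Rps27rt the lowest at 2.26 ± 0.283 CPM. Per kilobase of transcript, which allows genes of different lengths to be compared, the median was 206.5 CPM per kb. The highest were the large-subunit gene Rpl32 at 682 ± 13.5, the small-subunit gene Rps14 at 578 ± 41.5, Rpl4 at 532 ± 13.2 and the small-subunit gene Rps18 at 492 ± 19.9 CPM per kb. Rpl32 lay above Rps14, and Rpl4 above Rps18, by more than their summed SD, while Rps14 and Rpl4 did not differ by that much. The lowest were Rps27rt at 6.03 ± 0.757, Rps20 at 24.4 ± 0.662, Rpl12 at 55.5 ± 3.54 and Rpl27a at 55.8 ± 2.53 CPM per kb, the last pair within each other's spread. The value of Rps20 rests on a transcript model of 3706 bases for a coding length of 357 bases. That of Rpl12 rests on one of 1242 bases and that of Rpl27a on one of 1158 bases, so these values depend on the annotated length.

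Reads of these genes can be hard to place, because the mouse genome carries many processed copies of them. Of the 82 transcripts, 80 share at least one stretch of 75 bases with another annotated gene, and 39 share at least 50% of their stretches, with a median of 49.15%. Rps27 shares 98.5%, Rpl10 91.9%, Rps27rt 90.3% and Rps2 71.1%, whereas Rps3 shares none. The table names 289 numbered pseudogenes of this family, of which 235 had a read. Together their reads came to 0.609% to 0.717% of the ribosomal protein reads of each library. This covers only names with the pseudogene suffix, and reads of pseudogenes with other names were not summed. Rpl7a alone shares stretches with 64 annotated pseudogenes, and Rpl21 with 60. Neither the read length nor the handling of reads that fit several genes is given in the sources used here. Levels of genes with near-identical copies, and above all the division of reads between Rps27 and Rps27rt, are therefore uncertain.

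The share of all counted reads that fell in the 82 genes was 1.57%, 1.75% and 1.58% in sh-Gpc4, 1.42%, 1.52% and 1.79% in sh-Gpc2, and 1.45%, 1.45% and 1.42% in sh-NT. All 3 sh-Gpc4 libraries lay above all 3 sh-NT libraries, while sh-Gpc2 library 1 lay within the range of sh-NT and sh-Gpc2 library 4 was the highest of the 9. The means were 1.63% ± 0.102 in sh-Gpc4, 1.58% ± 0.189 in sh-Gpc2 and 1.44% ± 0.0170 in sh-NT (SD, n = 3 each), which makes ratios to sh-NT of 1.13 and 1.09. The SD within sh-Gpc2 was larger than its difference from sh-NT, which was 0.136 percentage points. That difference was 0.0302 points without sh-Gpc2 library 4 and 0.213 points without sh-Gpc2 library 1. The share is a sum over genes chosen with earlier results known and is given without a test. The exact binomial 95% interval of the highest share, in sh-Gpc2 library 4, ran from 1.786% to 1.794%, and such intervals cover counting error only. Reads of the large subunit outnumbered those of the small subunit by a factor of 1.59 to 1.63 in every library, so both subunits moved together. In sorted bulk cells, fewer cells of a type and less RNA per cell cannot be told apart.

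**Figure D1:**
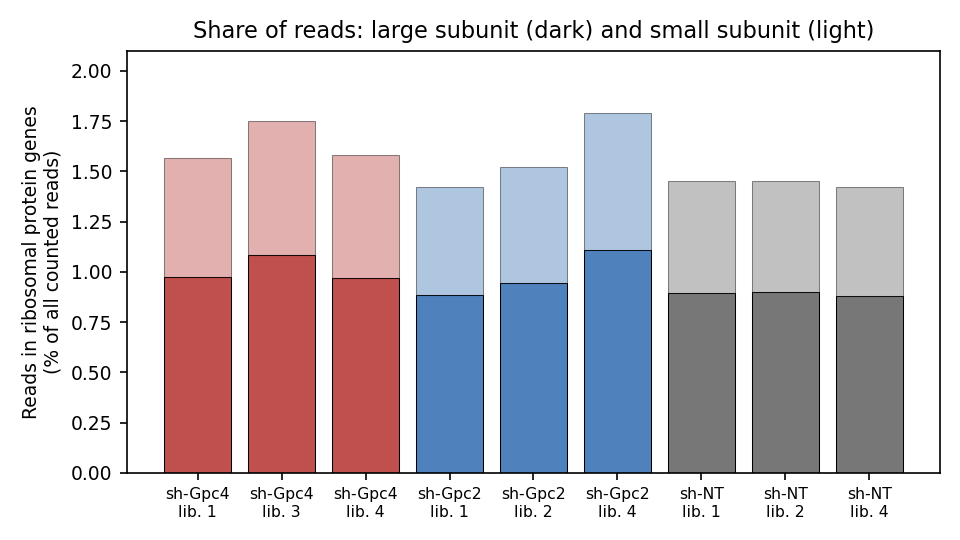
Share of all counted reads in the 82 ribosomal protein genes in each library, split into large-subunit (dark) and small-subunit (light) genes, in percent from 0. The sh-Gpc4 libraries stand at 1.57% to 1.75%, the sh-Gpc2 libraries spread over 1.42% to 1.79%, and the sh-NT libraries lie at 1.42% to 1.45%.

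Single genes followed the library they were measured in. For each gene, the log2 CPM of a library was set against that gene's mean over the 9 libraries. The median of these deviations over the 82 genes was 0.02, 0.16 and -0.00 in sh-Gpc4 libraries 1, 3 and 4, and -0.14, 0.02 and 0.17 in sh-Gpc2 libraries 1, 2 and 4. It was -0.08, -0.09 and -0.04 in sh-NT libraries 1, 2 and 4. The number of genes above their own mean was 57, 80 and 40 of 82 in sh-Gpc4, 1, 54 and 79 in sh-Gpc2, and 6, 5 and 12 in sh-NT. The highest medians were thus those of sh-Gpc4 library 3 and sh-Gpc2 library 4, the same libraries that lay apart on the first principal component. The lowest was that of sh-Gpc2 library 1. In sh-Gpc4 library 3 and sh-Gpc2 library 4 the mean deviations of the progenitor markers were also the lowest. The mean deviation of the 10 radial glia markers was -0.35 in sh-Gpc4 library 3 and -0.23 in sh-Gpc2 library 4, against -0.07 to 0.43 in the other 7 libraries. That of the 8 intermediate progenitor markers was -0.21 and -0.24, against -0.12 to 0.17. The summed level of the radial glia markers was 1702 to 2204 CPM in sh-Gpc4, 1995 to 2792 CPM in sh-Gpc2 and 1953 to 2109 CPM in sh-NT. The summed level of the intermediate progenitor markers was 1105 to 1209 CPM in sh-Gpc4, 1128 to 1417 CPM in sh-Gpc2 and 1144 to 1212 CPM in sh-NT. In sh-Gpc4 library 3 the sums were 1702 CPM for radial glia and 1209 CPM for intermediate progenitor markers, and in sh-Gpc2 library 4 they were 1995 and 1168 CPM. By summed level, only the radial glia markers in sh-Gpc4 library 3 were thus the lowest of the 9 libraries. The part of the progenitor markers in the ribosomal protein levels was not tested. The median SD of a ribosomal protein gene over the 9 libraries was 0.12 log2 units, and it was 0.06 once the library's median was subtracted. For all tested genes with a mean log2 CPM above 3 the median SD was 0.16. The 82 genes are therefore not 82 independent measurements of a condition.

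**Figure D2:**
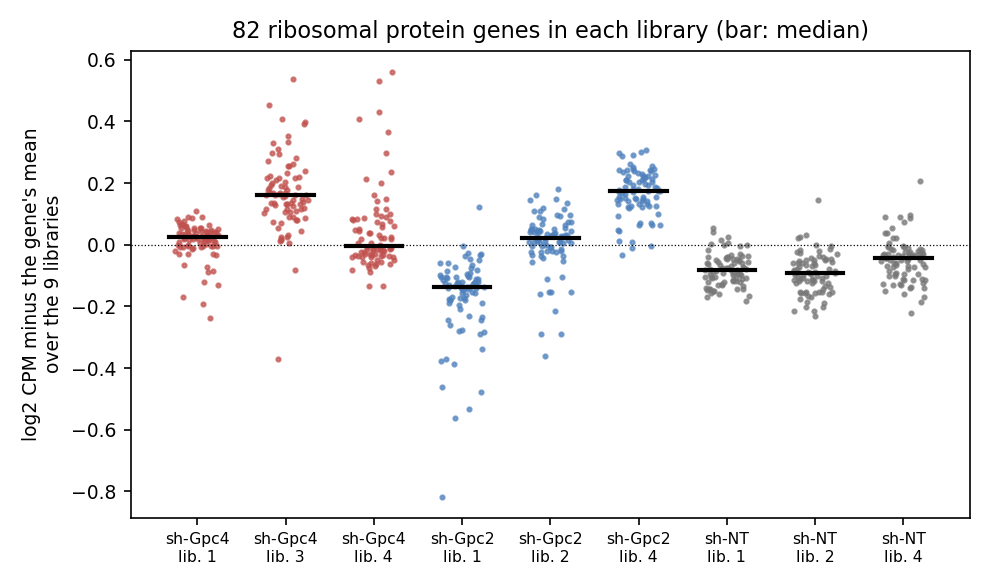
Log2 CPM of each of the 82 genes (points) in each library, minus that gene's mean over the 9 libraries, with the median as a bar. The bars of sh-Gpc4 library 3 and sh-Gpc2 library 4 are the highest at 0.16 and 0.17, that of sh-Gpc2 library 1 is the lowest at -0.14, and the sh-NT bars lie between -0.09 and -0.04.

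The first comparison asks how the hairpin against Gpc4 changed expression. In sh-Gpc4 against sh-NT, 78 of the 82 genes had a positive log2 fold change and 4 a negative one, where 52.8% of all tested genes were positive. The median was 0.15 over the 82 genes and 0.02 over all tested genes. It was 0.14 over the large-subunit genes and 0.16 over the small-subunit genes. By edgeR's quasi-likelihood test with Benjamini-Hochberg adjustment, none of the 82 passed the threshold of 0.05, where 0% of all genes were called, and their smallest adjusted p was 0.488. No gene of the 82 had an unadjusted p under 0.05 either, where 3.56% of all genes did so with a higher level and 6.01% with a lower one. DESeq2 called none of the 82 (0.166% of all genes) and had none at an unadjusted p under 0.05, where 3.19% of all genes were higher and 7.56% lower. By limma voom, run with sample weights, none was called (background 0%) and there were 29 of 82 higher at an unadjusted p under 0.05 and none lower, against 14.7% and 17.7% of all genes. In 47 genes (57.3%) every sh-Gpc4 library was higher than every sh-NT library, where 10.8% of all genes did so. In 1 gene, Rps2, every sh-Gpc4 library was lower, where 13.2% of all genes did so. Without the libraries that lay apart, 77 genes were positive, the median was 0.09 (0.00 over all genes), and 47 genes were higher and 1 lower without overlap, against backgrounds of 14.4% and 15.3%. The microglia markers moved in the same direction, with 10 of 11 positive and a median of 0.43. Of the erythroid markers, 5 of 7 were positive (median 0.145). Medians were -0.03 for radial glia, 0.00 for intermediate progenitor and -0.06 for excitatory neuron markers. For markers at low levels, they were -0.97 (endothelial), -0.71 (mural), -2.36 (interneuron and ventral) and -1.69 (oligodendrocyte precursor). The part of these cell types in the result was not tested.

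Among large-subunit genes, Rpl10 had the smallest p in this comparison. Rpl10 (ENSMUSG00000008682, GRCm38 chromosome X, 74270812 to 74273135, plus strand) encodes a protein that joins the large subunit late, in the cytoplasm, and is needed for the subunit to become active. It was at 263, 279 and 243 CPM in sh-Gpc4, against 232, 235 and 219.8 CPM in sh-NT, so all sh-Gpc4 libraries were higher. The log2 fold change was 0.19 (SE 0.09, 95% interval -0.00 to 0.39), with an adjusted p of 0.488. Rpl22l1 (ENSMUSG00000039221, chromosome 3, 28805436 to 28807424, plus strand), a paralog that can take the place of Rpl22 in the ribosome, was at 68.9, 80.5 and 75.4 CPM in sh-Gpc4, against 61.0, 60.5 and 61.6 CPM in sh-NT. Its groups did not overlap either, and the sh-NT libraries lay within 2 CPM of each other. The log2 fold change was 0.30 (SE 0.14, 95% interval -0.01 to 0.61), with an adjusted p of 0.488. Rpl23 was at 141, 174 and 153 CPM in sh-Gpc4, against 126, 123 and 138 CPM in sh-NT, and Rpl36a was at 75.05, 93.9 and 84.5 CPM in sh-Gpc4, against 72.1, 68.5 and 71.3 CPM in sh-NT. Both are large-subunit genes whose groups did not overlap, and library 3 was the highest of sh-Gpc4 in each. Their log2 fold changes were 0.27 (SE 0.14) and 0.26 (SE 0.14), with an adjusted p of 0.488 for each.

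Among small-subunit genes, Rps2 went against the rest. Rps2 (ENSMUSG00000044533, chromosome 17, 24718116 to 24721929, plus strand) encodes a protein near the site where mRNA enters the small subunit. It was at 202, 176 and 230.0 CPM in sh-Gpc4, against 231, 251 and 236 CPM in sh-NT. All sh-Gpc4 libraries were lower, library 4 only just. The log2 fold change was -0.24 (SE 0.11, 95% interval -0.48 to 0.00), with an edgeR adjusted p of 0.488, and it was 0.01 once a trend with GC content was removed from each library. Without the libraries that lay apart it was -0.16. Rpl5 at -0.01 and Rpl14 at -0.01 were also negative, both with overlapping groups. Rpl5 binds the 5S ribosomal RNA together with Rpl11, in a particle that also restrains Mdm2, and was at 265, 268 and 247 CPM in sh-Gpc4, against 252, 256 and 276 CPM in sh-NT. Rps20, a protein of the head of the small subunit, was at 97.9, 111 and 102 CPM in sh-Gpc4, against 92.8, 90.2 and 87.9 CPM in sh-NT. Its groups did not overlap, and the log2 fold change was 0.20 (SE 0.10), with an adjusted p of 0.488. Rps6, which S6 kinases phosphorylate downstream of mTORC1, was at 185, 202 and 179.5 CPM in sh-Gpc4, against 171, 173 and 176 CPM in sh-NT. It was also higher in every sh-Gpc4 library, with a log2 fold change of 0.13 and an adjusted p of 0.556.

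The second comparison asks the same of the hairpin against Gpc2, and it shares the sh-NT libraries with the first. In sh-Gpc2 against sh-NT, 70 of the 82 genes had a positive log2 fold change and 12 a negative one, where 50.7% of all tested genes were positive. The median was 0.11 over the 82 genes and 0.00 over all tested genes. It was 0.12 over large-subunit and 0.11 over small-subunit genes. None was called in edgeR's quasi-likelihood test (background 0%), with a smallest adjusted p of 0.968, and none had an unadjusted p under 0.05, where 1.62% of all genes were higher and 0.947% lower. DESeq2 also called none and had none at an unadjusted p under 0.05 (backgrounds 1.28% higher and 0.886% lower), and the same held for limma voom (1.44% and 0.893%). In 5 genes (6.1%) every sh-Gpc2 library was higher than every sh-NT library, close to the 3.59% of all genes that did so. Those were Rpl8, Rpl10, Rpl10a, Rpl13 and Rpl32, all of the large subunit. No gene was lower without overlap, where 4.11% of all genes were. The median rested on library 4, since without sh-Gpc2 library 4 it was 0.04 with 55 genes positive, and without library 1 it was 0.19 with 79 positive and 20 genes (24.4%) higher at an unadjusted p under 0.05, where 2.96% of all genes were. Without both libraries that lay apart it was 0.02, with 49 genes positive and 33 negative, and 5 genes were higher and 5 lower without overlap (backgrounds 6.46% and 7.72%). Of the 11 microglia markers 9 were positive, with a median of 0.29. Medians were 0.29 for erythroid, 0.09 for radial glia, 0.00 for intermediate progenitor and -0.10 for excitatory neuron markers. For markers at low levels, they were -0.88 (endothelial), -0.67 (mural), -1.65 (interneuron and ventral) and -0.01 (oligodendrocyte precursor). The part of these cell types in the result was not tested.

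The genes with the smallest p in this comparison were mostly of the large subunit on the positive side and had short coding sequences on the negative side. Rpl10 was at 245, 257 and 282 CPM in sh-Gpc2, against 232, 235 and 219.8 CPM in sh-NT. The groups did not overlap, and the log2 fold change was 0.19 (SE 0.09, 95% interval -0.00 to 0.39), with an adjusted p of 0.968 in edgeR. Rpl8, whose protein lies close to the peptidyl transferase centre, was at 213, 247 and 249.5 CPM in sh-Gpc2, against 212.5, 208 and 206 CPM in sh-NT. Library 1 of sh-Gpc2 lay barely above the highest sh-NT library, and the log2 fold change was 0.18 (SE 0.08), with an adjusted p of 0.968. Rpl29, a large-subunit protein also known to bind heparin and heparan sulfate, was at 92.0, 103 and 106 CPM in sh-Gpc2, against 89.5, 92.0 and 89.4 CPM in sh-NT. Its groups touched, with a log2 fold change of 0.15 (SE 0.09) and an adjusted p of 0.968, and in sh-Gpc4 it was at 95.2, 102 and 90.1 CPM. On the negative side, Rps28, a small protein near the site where mRNA leaves the small subunit, was at 41.3, 47.1 and 56.2 CPM in sh-Gpc2, against 59.7, 56.0 and 56.8 CPM in sh-NT. Only sh-Gpc2 library 4 reached the range of sh-NT, and the log2 fold change was -0.25 (SE 0.17, 95% interval -0.64 to 0.13), with an adjusted p of 0.968. Rpl38, which in mice is needed for the translation of Hox mRNAs, was at 43.9, 57.1 and 69.3 CPM in sh-Gpc2, against 64.2, 56.2 and 67.8 CPM in sh-NT. These groups overlapped, with a log2 fold change of -0.14 (SE 0.20) that was 0.01 without sh-Gpc2 library 1.

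Between both hairpins, the fold changes farthest from 0 were those of genes for very small ribosomal proteins. In sh-Gpc4 against sh-Gpc2, 62 of the 82 genes were positive and 20 negative, with a median of 0.03 (all tested genes -0.00, with 49.5% positive). This median was -0.02 without sh-Gpc4 library 3 and -0.05 without sh-Gpc2 library 1, so its sign rested on single libraries. No gene was called in edgeR's quasi-likelihood test (background 0%), and the smallest adjusted p was 0.966. An unadjusted p under 0.05 was reached by 3 higher genes, Rps28, Rps29 and Rpl39 (background 1.09%), and 1 lower gene, Rps2 (background 1.8%). DESeq2 called none and had 3 higher (background 0.85%) and 1 lower (1.99%) at that level. Limma voom called none and had 10 higher (2.3%) and none lower (2.48%). Without the libraries that lay apart, 73 genes were positive, the median was 0.07 and 11 (13.4%) were higher at an unadjusted p under 0.05, where 2.13% of all genes were. In that setting 24 genes were higher and 1 lower without overlap, against backgrounds of 17.8% and 17.5%. With all libraries, 1 gene was higher without overlap (background 3.5%) and none lower (background 2%). That gene was Rpl22, at 79.3, 77.7 and 84.7 CPM in sh-Gpc4, against 70.7, 76.9 and 77.0 CPM in sh-Gpc2, with a log2 fold change of 0.11 (SE 0.08).

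Rps28 (ENSMUSG00000067288, chromosome 17, 33819027 to 33824562, minus strand) was at 52.5, 76.3 and 83.1 CPM in sh-Gpc4, against 41.3, 47.1 and 56.2 CPM in sh-Gpc2. The sh-NT level was 59.7, 56.0 and 56.8 CPM, and sh-Gpc4 library 1 lay within the range of sh-Gpc2. The log2 fold change between both hairpins was 0.55 (SE 0.17, 95% interval 0.17 to 0.94), with an adjusted p of 0.966 in edgeR. Rps29 (ENSMUSG00000034892, chromosome 12, 69157722 to 69159186, minus strand), a zinc-binding protein of the head of the small subunit, was at 63.1, 108 and 109.7 CPM in sh-Gpc4, against 50.3, 57.9 and 77.7 CPM in sh-Gpc2. Libraries 3 and 4 of sh-Gpc4 were well above every other library, including the sh-NT libraries at 74.4, 70.1 and 79.0 CPM, while library 1 was below all 3 of sh-NT. The log2 fold change was 0.60 (SE 0.22, 95% interval 0.10 to 1.09), with an adjusted p of 0.966. Rpl39 (ENSMUSG00000079641, chromosome X, 37082520 to 37085402, minus strand), which lines the exit tunnel, was at 43.4, 55.8 and 54.4 CPM in sh-Gpc4, against 33.9, 39.6 and 47.5 CPM in sh-Gpc2. Values of 45.6, 43.7 and 39.4 CPM in sh-NT lay within the range of sh-Gpc2, and the log2 fold change was 0.34 (SE 0.15, 95% interval 0.02 to 0.67), with an adjusted p of 0.966. Rps2 was at 202, 176 and 230.0 CPM in sh-Gpc4, against 247, 257 and 225 CPM in sh-Gpc2. The groups overlapped through library 4 of each, and the log2 fold change was -0.26 (SE 0.11), with an adjusted p of 0.966. Without the libraries that lay apart the log2 fold changes were 0.63 for Rps28, 0.68 for Rps29, 0.42 for Rpl39 and -0.22 for Rps2.

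**Figure D3:**
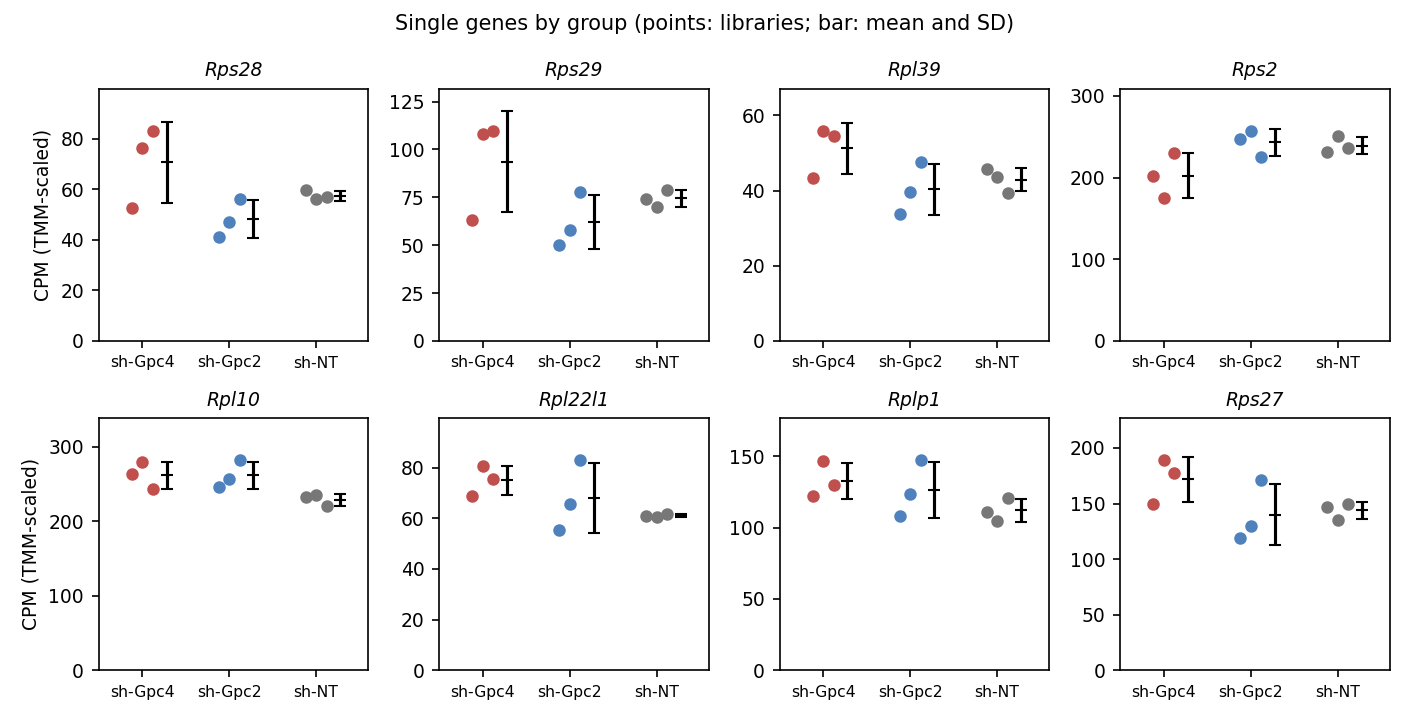
CPM (TMM-scaled, from 0) of 8 ribosomal protein genes in sh-Gpc4, sh-Gpc2 and sh-NT; points are libraries in the order of their numbers, and the bar gives mean and SD. Rps28 and Rps29 reach 83.1 and 109.7 CPM in sh-Gpc4 library 4, the sh-Gpc4 libraries of Rps2 (176 to 230.0 CPM) lie below those of sh-NT (231 to 251 CPM), and Rpl10 is above its sh-NT range in both hairpin groups.

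Among other genes of up to 300 coding bases, some showed the same split between libraries and some did not. Rps21 was at 53.0, 74.2 and 72.6 CPM in sh-Gpc4, against 40.9, 50.7 and 62.3 CPM in sh-Gpc2, and its log2 fold change was 0.38 (SE 0.17). Rpl38 was at 55.6, 83.2 and 85.6 CPM in sh-Gpc4, against 43.9, 57.1 and 69.3 CPM in sh-Gpc2, a log2 fold change of 0.40 (SE 0.20). Rps27, a zinc-binding small-subunit protein, was at 149.7, 189 and 177 CPM in sh-Gpc4, against 119, 129.6 and 171 CPM in sh-Gpc2, a log2 fold change of 0.30 (SE 0.14). In all 3 genes libraries 3 and 4 of sh-Gpc4 were the highest of the 9, and library 1 of sh-Gpc2 was the lowest. None passed the test, each with an adjusted p of 0.966 in edgeR. Rpl41, the shortest of the 82 with 75 coding bases, was at 162, 202 and 181 CPM in sh-Gpc4, against 132, 172 and 204 CPM in sh-Gpc2, a log2 fold change of 0.10 (SE 0.15). Rpl37a was at 116, 156 and 140.1 CPM in sh-Gpc4, against 93.9, 113 and 141 CPM in sh-Gpc2, a log2 fold change of 0.25 (SE 0.15). In both, sh-Gpc2 library 4 was above sh-Gpc4 library 4. In Rps27l, libraries 2 and 4 of sh-Gpc2 were the highest of the 9, and the log2 fold change was 0.01 (SE 0.11). The largest SD of log2 CPM over the 9 libraries was that of Rps27rt at 0.39, followed by Rps29 at 0.37, Rps28 at 0.31 and Rpl38 at 0.30. Rps27rt was counted with as few as 71 reads in a library, so counting error adds to its spread.

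The fold changes were ordered by coding length. Across the 82 genes, Spearman's rho between coding length and log2 fold change was -0.40 for sh-Gpc4 against sh-NT, 0.55 for sh-Gpc2 against sh-NT and -0.67 for sh-Gpc4 against sh-Gpc2. Among 8665 other protein-coding genes with a mean log2 CPM above 4, the values were -0.30, -0.40 and -0.10. These are descriptions across genes, which share the same libraries and are not independent, and coding length moves with transcript length and with level. For genes other than the ribosomal ones, fold changes over sh-NT thus ran higher for shorter messages in both hairpin groups. The ribosomal protein genes ran the opposite way in sh-Gpc2, but the libraries within a group differed. Across the 82 genes, rho between coding length and a library's deviation was 0.65, 0.57 and 0.06 in sh-Gpc2 libraries 1, 2 and 4. It was 0.36, -0.46 and -0.65 in sh-Gpc4 libraries 1, 3 and 4, and -0.38, 0.04 and -0.08 in sh-NT libraries 1, 2 and 4. Libraries of the groups overlapped, however. For other genes of up to 300 coding bases, the median deviation was -0.01 in sh-Gpc4 library 1 and -0.14 in sh-Gpc2 library 1. In sh-NT libraries 1, 2 and 4 it was -0.11, -0.15 and 0.02.

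**Figure D4:**
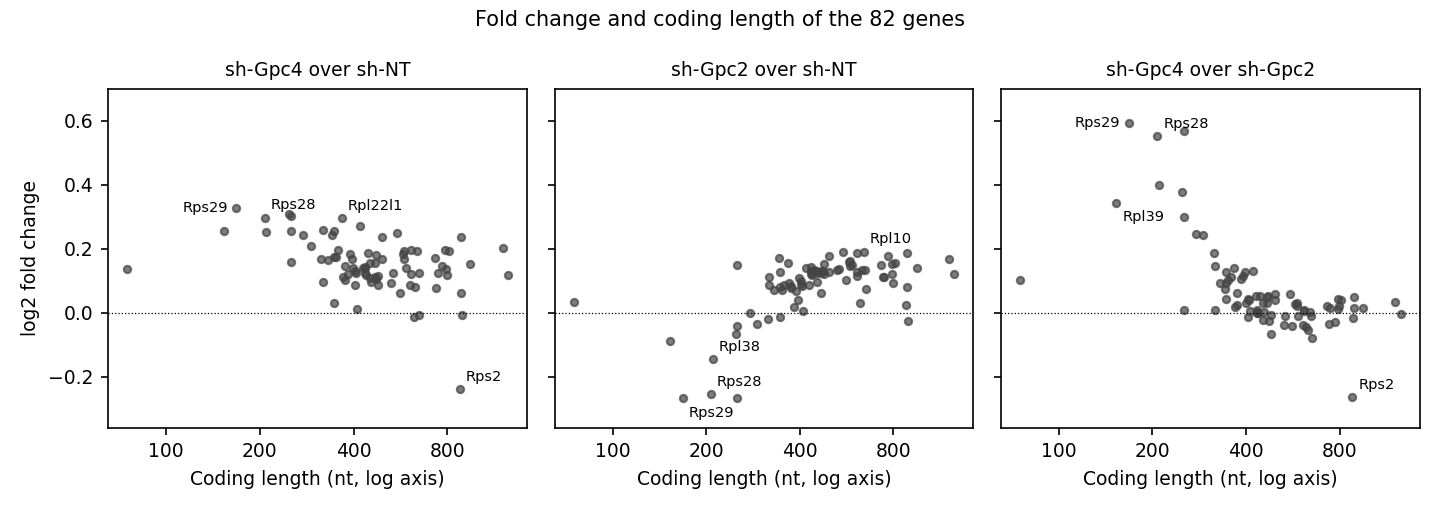
Log2 fold change of each of the 82 genes against coding length in bases (log axis) in the 3 comparisons. The short genes Rps28 and Rps29 lie near the top in sh-Gpc4 over sh-NT (0.30 and 0.33) and near the bottom in sh-Gpc2 over sh-NT (-0.25 and -0.27), and Rps2 is the lowest point in sh-Gpc4 over sh-NT (-0.24) and in sh-Gpc4 over sh-Gpc2 (-0.26).

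Divided by coding length, the classes differed in how far ribosomal protein genes departed from other genes of like length. In sh-Gpc4 against sh-NT, the 10 ribosomal protein genes of up to 300 bases with a mean log2 CPM above 4 had a median log2 fold change of 0.25, and 203 other protein-coding genes of that length had 0.15. Above 300 and up to 450 bases the medians were 0.14 for 29 ribosomal protein genes and 0.13 for 421 others. Above 450 and up to 600 bases they were 0.14 for 19 and 0.09 for 552. Above 600 and up to 900 bases they were 0.12 for 20 and 0.06 for 1121, and above 2000 bases, where there is no ribosomal protein gene, the median was -0.10. Other short genes were thus positive as well, 181 of the 203 in the shortest class and 337 of the 421 in the next. Groups did not overlap, with sh-Gpc4 higher, in 1 of the 10 shortest ribosomal protein genes and 48 of the 203 others. In the class up to 450 bases this held for 20 of 29 and 85 of 421 others, and in the class up to 600 bases for 13 of 19 and 93 of 552 others. In sh-Gpc2 against sh-NT the class up to 300 bases had a median of -0.06 in the 10 ribosomal protein genes and 0.10 in the 203 others. The classes up to 450, up to 600 and up to 900 bases had 0.09, 0.13 and 0.12 in ribosomal protein genes, and 0.10, 0.08 and 0.05 in others. With a smooth trend on coding length removed from each library, the median over the 82 genes was 0.11 in sh-Gpc4 against sh-NT (all genes 0.07) and 0.06 in sh-Gpc2 against sh-NT (all genes 0.03).

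By library, the 10 shortest genes had median deviations of -0.07, 0.34 and 0.27 in sh-Gpc4 libraries 1, 3 and 4, of -0.38, -0.15 and 0.15 in sh-Gpc2 libraries 1, 2 and 4, and of -0.03, -0.10 and -0.01 in sh-NT libraries 1, 2 and 4. The 203 other genes of that length had -0.01, 0.14 and 0.06 in sh-Gpc4, -0.14, 0.04 and 0.14 in sh-Gpc2, and -0.11, -0.15 and 0.02 in sh-NT. In both sets sh-Gpc4 libraries 3 and 4 and sh-Gpc2 library 4 were the 3 highest, and the span from lowest to highest was wider in the ribosomal protein genes. Library 2 of sh-Gpc2 was below its gene means in the ribosomal set and above them in the other. The part of message length in the results was not tested.

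**Figure D5:**
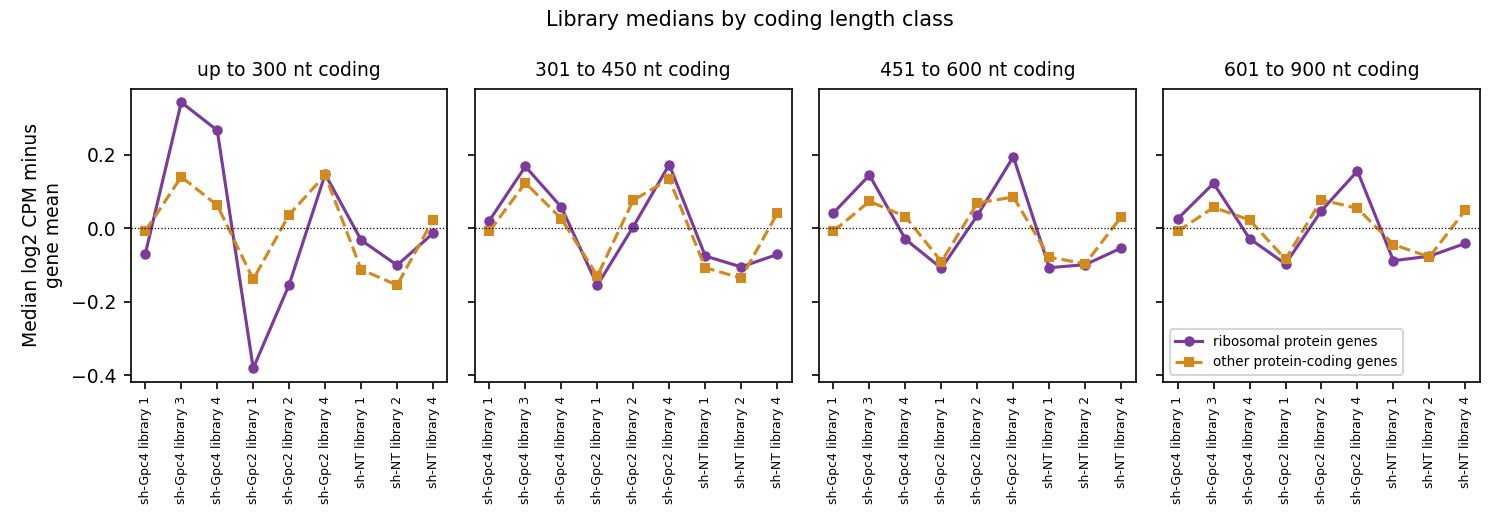
Median deviation of log2 CPM from each gene's mean in each library, for ribosomal protein genes (circles) and other protein-coding genes (squares) in 4 classes of coding length; lines join libraries only to guide the eye. In the shortest class the ribosomal protein genes run from -0.38 in sh-Gpc2 library 1 to 0.34 in sh-Gpc4 library 3, and in the 3 longer classes they stay between -0.16 and 0.19.

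The ribosomal stalk, which recruits elongation factors to the large subunit, is formed by Rplp0 with Rplp1 and Rplp2. Rplp1 (ENSMUSG00000007892, chromosome 9, 61913284 to 61914542, minus strand) was at 122, 147 and 129.7 CPM in sh-Gpc4, 108, 124 and 147 CPM in sh-Gpc2, and 111, 105 and 121 CPM in sh-NT. Every sh-Gpc4 library was above every sh-NT library, and the log2 fold change was 0.24 (SE 0.13, 95% interval -0.04 to 0.53), with an adjusted p of 0.488 in edgeR. In sh-Gpc2 the groups overlapped, with a log2 fold change of 0.17 (SE 0.13) and an adjusted p of 0.968. Rplp0 was at 628, 684 and 597 CPM in sh-Gpc4, 564, 617 and 709 CPM in sh-Gpc2, and 561, 563 and 591 CPM in sh-NT. It was higher in every sh-Gpc4 library than in sh-NT, with log2 fold changes of 0.15 (SE 0.10) for sh-Gpc4 and 0.14 (SE 0.10) for sh-Gpc2. Rplp2, in contrast, was at 92.6, 102 and 105 CPM in sh-Gpc4, 90.2, 103 and 97.9 CPM in sh-Gpc2, and 98.0, 100.3 and 95.5 CPM in sh-NT. The sh-NT libraries lay inside the range of both hairpin groups, with log2 fold changes of 0.03 (SE 0.09) and -0.01 (SE 0.09).

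The paralogs of ribosomal proteins, which can replace or duplicate their parents, were described beside them. Rpl22 was at 79.3, 77.7 and 84.7 CPM in sh-Gpc4, 70.7, 76.9 and 77.0 CPM in sh-Gpc2, and 76.2, 75.1 and 70.7 CPM in sh-NT, a log2 fold change of 0.12 (SE 0.08) in sh-Gpc4 and 0.02 (SE 0.08) in sh-Gpc2 against sh-NT. Its paralog Rpl22l1, at 55.4, 65.8 and 82.9 CPM in sh-Gpc2, had 0.16 (SE 0.14) there. In sh-NT, Rpl22 stood at 156 ± 6.21 CPM per kb and Rpl22l1 at 111 ± 0.979 CPM per kb. Rpl36al was at 30.5, 38.2 and 33.7 CPM in sh-Gpc4, 27.97, 34.9 and 38.9 CPM in sh-Gpc2, and 31.4, 32.1 and 32.2 CPM in sh-NT. Its groups overlapped, with log2 fold changes of 0.10 (SE 0.14) and 0.09 (SE 0.14) for sh-Gpc4 and sh-Gpc2 over sh-NT. Rps27l, a p53 target, was at 103, 109.7 and 110.6 CPM in sh-Gpc4, 87.8, 114 and 119 CPM in sh-Gpc2, and 95.1, 95.6 and 99.1 CPM in sh-NT. Its level was higher in every sh-Gpc4 library than in sh-NT, with a log2 fold change of 0.16 (SE 0.11) and an adjusted p of 0.543 in edgeR. Rpl7l1 was at 176, 186 and 155 CPM in sh-Gpc4, 153, 190.2 and 185 CPM in sh-Gpc2, and 165, 162 and 162 CPM in sh-NT, with overlap in both comparisons. Without these paralogs and their parents, 69 of 73 genes were positive in sh-Gpc4 against sh-NT and 63 of 73 in sh-Gpc2 against sh-NT, with medians of 0.14 and 0.12.

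Fau encodes a ribosomal protein fused to a ubiquitin-like protein, and its name falls outside the rule. It was at 129, 152 and 131 CPM in sh-Gpc4, 116, 131 and 154 CPM in sh-Gpc2, and 118, 114 and 129 CPM in sh-NT. Its highest libraries were sh-Gpc4 library 3 and sh-Gpc2 library 4, as for the median ribosomal protein gene. The log2 fold changes over sh-NT were 0.19 (SE 0.12) in sh-Gpc4 and 0.15 (SE 0.12) in sh-Gpc2, and neither passed the test.

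Genes that make, use or control ribosomes were set beside them from lists chosen with earlier results known, and no gene of any list passed an adjusted p of 0.05 in edgeR in any of the 3 comparisons. Of 78 mitochondrial ribosomal proteins, which are encoded apart and serve another ribosome, 71 had a positive log2 fold change in sh-Gpc4 against sh-NT and 72 in sh-Gpc2 against sh-NT. Their medians were 0.13 and 0.10, close to the 0.15 and 0.11 of the cytoplasmic genes. Other protein-coding genes above 300 and up to 450 coding bases, with a mean log2 CPM above 4, also had medians of 0.13 and 0.10. Those above 450 and up to 600 bases had 0.09 and 0.08. The coding lengths of the mitochondrial list were not compared, and the part of message length in its medians was not tested. Every sh-Gpc4 library was higher than every sh-NT library in 15 of the 78, where 10.8% of all genes did so. Of 22 translation factors and other TOP mRNAs, 15 and 17 were positive, with medians of 0.12 and 0.09. Tpt1, a TOP mRNA, was at 202, 213 and 189.8 CPM in sh-Gpc4, against 168, 176 and 189 CPM in sh-NT, a log2 fold change of 0.18 (SE 0.09). The translation initiation factor subunit Eif3f ran the other way, at 108 ± 29.9 CPM in sh-Gpc4 and 160.4 ± 8.90 CPM in sh-NT (SD, n = 3 each), with a log2 fold change of -0.57 (SE 0.21). Of 52 ribosome biogenesis factors, 32 were positive and 20 negative in either comparison with sh-NT, with medians of 0.06 and 0.04. The snoRNP proteins Gar1 and Fbl had log2 fold changes of -0.98 (SE 0.25) and -0.73 (SE 0.25) in sh-Gpc4 against sh-NT. On the positive side, Riok1 had 0.23 (SE 0.10) and Polr1c 0.19 (SE 0.09) in that comparison.

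Of 18 genes of mTORC1 and Myc, which control ribosome supply, 4 were positive and 14 negative in sh-Gpc4 against sh-NT, and 5 and 13 in sh-Gpc2 against sh-NT, each with a median of -0.09. These counts do not separate genes that promote ribosome supply from those that restrain it. All other protein-coding genes of over 2000 coding bases had medians of -0.10 and -0.08, and the coding lengths of this list were not compared. Mycn, the Myc family member of neural progenitors, was at 272, 149 and 222 CPM in sh-Gpc4, 265, 285 and 157 CPM in sh-Gpc2, and 285, 297 and 323 CPM in sh-NT. The lowest libraries were sh-Gpc4 library 3 and sh-Gpc2 library 4, in which the ribosomal protein genes were highest. The log2 fold changes of Mycn were -0.49 (SE 0.25) and -0.36 (SE 0.25), with adjusted p of 0.488 and 0.968 in edgeR. Mtor was at 35.6 ± 6.10 CPM in sh-Gpc4 and 49.8 ± 7.501 CPM in sh-NT (SD, n = 3 each), a log2 fold change of -0.49 (SE 0.20) with an adjusted p of 0.488. On the positive side in that comparison, Rps6kb1 had a log2 fold change of 0.19 (SE 0.10). Deptor, at a low level of 3.11 CPM in sh-Gpc4 and 2.17 CPM in sh-NT, had 0.52 (SE 0.25). Larp1 was at 33.7, 44.5 and 34.9 CPM in sh-Gpc4, 28.9, 32.1 and 44.1 CPM in sh-Gpc2, and 35.1, 30.8 and 36.1 CPM in sh-NT, with overlap in both comparisons.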

How the data were processed

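The authors deposited raw read counts per gene for 9 RNA-seq libraries, counted with featureCounts of the Subread package, with the builds GRCm38 and mm10 named, per the submitters' processing notes. The labels name PicoPure isolation and a NEBNext single-cell, low-input kit. For the aligner, annotation release, versions and use of strand, nothing is given in the sources used here. Overlapping and antisense genes therefore cannot be separated. Symbols, coding lengths (without stop codon) and transcript models came from GENCODE M21, which named 51486 of 78275 IDs. Promoters came from RefSeq.

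The edgeR 4.0.16 quasi-likelihood test (R 4.3.3, TMM, default filter, Benjamini-Hochberg over 27773 genes, threshold 0.05) used a group-means model over the 9 libraries. SE is the log2 fold change over the square root of F. Log2 CPM used a prior count of 2. The step was tested on simulated counts. Alternatives included the DESeq2 1.42.0 Wald test, limma 3.58.1 voom, other filters, GC and coding length trends, and left-out libraries.

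The members and lists were chosen with earlier results of these data known. Named genes are, per comparison, the 6 with the smallest p in each direction, the extremes of level and spread, the stalk genes and the paralogs. Rps6, Rpl37a, Rpl41, Larp1, Mycn and the snoRNA were added after their values were seen. Some genes that the rule names are not reported here. The permutation test planned for the share of reads is not reported, because the share sums over chosen members.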

Additional observations from a re-analysis of the deposited data

How the results depend on the processing

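In all 3 comparisons, none of the 82 genes was called under any alternative run, including the DESeq2 Wald test, and the smallest adjusted p of a ribosomal protein gene was 0.0597, with limma voom in sh-Gpc4 against sh-NT. The median log2 fold change over the 82 genes was 0.15 in sh-Gpc4 against sh-NT and ran from 0.11 to 0.17 when 1 library was left out. It was 0.11 in sh-Gpc2 against sh-NT and ran from 0.04 to 0.19, and it was 0.03 in sh-Gpc4 against sh-Gpc2 and ran from -0.05 to 0.11. The difference in the share of reads between sh-Gpc4 and sh-Gpc2, 0.0551 percentage points, ran from -0.0222 to 0.161 when 1 library was left out. Between sh-Gpc4 and sh-NT it was 0.191 and ran from 0.132 to 0.224, and between sh-Gpc2 and sh-NT it was 0.136 and ran from 0.0302 to 0.213. The difference between both hairpins turned negative without sh-Gpc4 library 3 and without sh-Gpc2 library 1, and the cause was not tested. Leaving out both libraries that lay apart, and removing the coding length trend, were chosen after seeing the data. Same-numbered libraries had deviations that correlated by -0.10 to 0.68. Differently numbered libraries were not set beside them, so whether column numbers pair the libraries cannot be decided from these values. With the numbers as a replicate block the medians were 0.10, 0.11 and -0.02, and no call changed. For 31 pairs of a gene and a comparison, chosen for the smallest p in each direction, the direction was kept in 506 of 525 alternatives. Genes chosen in this way tend to keep their sign when the same libraries are fitted again. The count therefore does not describe the 82 genes. With the GC trend removed the log2 fold change turned to 0.28 for Rpl14 and 0.0107 for Rps2 in sh-Gpc4 against sh-NT, to 0.0172 for Rpl38 in sh-Gpc2 against sh-NT, and to 0.0655 for Rpl14, 0.0178 for Rpl18 and 0.14 for Rpl29 in sh-Gpc4 against sh-Gpc2. In sh-Gpc4 against sh-NT, Rpl14 was also 0.0024 and Rpl5 0.0011 with the filter of 5 CPM, Rpl14 was 0.0569 with the replicate block and 0.0128 without both libraries that lay apart, and Rpl5 was 0.0083 with the coding length trend removed. With 1 library left out, Rpl14 ran from -0.0405 to 0.0304 and Rpl5 from -0.0356 to 0.0277 in that comparison. In sh-Gpc2 against sh-NT, Rpl38 ran from -0.31 to 0.0108, Rpl39 from -0.22 to 0.0223 and Rps21 from -0.23 to 0.0727, and in sh-Gpc4 against sh-Gpc2 Rpl13 ran from -0.10 to 0.0081.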

Other observations

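Small nucleolar RNAs, which guide the chemical modification of ribosomal RNA, lie in introns of many ribosomal protein genes. The annotation places 51 of them inside 29 of the 82 genes on the same strand, and all 51 had reads, with 43 passing the filter on low counts. Gm26205 in Rpl6 had the most, with 3939 reads over the 9 libraries. Gm26205 was at 8.29, 8.04 and 8.67 CPM in sh-Gpc4, 7.72, 7.12 and 7.88 CPM in sh-Gpc2, and 6.36, 6.19 and 6.58 CPM in sh-NT. Every library of either hairpin was above every sh-NT library. Of all tested genes, 10.8% did so in sh-Gpc4 and 3.59% in sh-Gpc2, each taken alone. Gm26205 was chosen for its read count among the 51 and described after its values were seen. Whether the reads come from a mature snoRNA or from unspliced host transcripts was not tested.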
